A study of Danio rerio with 25 samples.

Results

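sp7, runx2a and runx2b encode the transcription factors of the osteoblast lineage, and their values in whole zebrafish larvae are described here. The genes were chosen by their Ensembl identifiers, ENSDARG00000019516 for sp7, ENSDARG00000040261 for runx2a and ENSDARG00000059233 for runx2b, and are 3 of the 32520 genes listed in each of 2 count tables. The first table holds 15 RNA-seq libraries of Tg(Ola.Sp7:nlsGFP) larvae, whose GFP reporter marks bone tissue, kept in 10 µM dexamethasone (DEX), a synthetic glucocorticoid used to induce osteoporosis, with 3 libraries on each day from D3 to D7. The labels count these days from the addition of DEX, whereas the methods of the study count them from fertilization. The second table holds 5 libraries of wild-type (WT) larvae and 5 of cdkn1a crispants, which are mosaic larvae grown from eggs injected at the one-cell stage with Cas9 protein and 4 pooled sgRNAs against exon 2 of cdkn1a. cdkn1a encodes a cyclin-dependent kinase inhibitor. The titles name sgCdkn1a for all 5 crispant libraries, whereas their treatment labels run from sgCdkn1a to sgCdkn5a, and the libraries were grouped by title. The labels give no day for these 10 libraries, the methods of the study name 3, 4, 5, 6 and 7 days post-fertilization for its RNA-seq samples without saying which library is which, and the labels do not say whether the libraries of a group came from separate clutches, so p-values measure only the spread between these libraries. No vehicle-treated library of the DEX course was analysed here, so larval development and the exposure cannot be told apart.

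Runx2 commits mesenchymal cells to the osteoblast lineage, binding DNA together with its partner Cbfb. Sp7, also called Osterix, acts downstream of Runx2 and is needed for committed cells to become osteoblasts that lay down and mineralize matrix. Zebrafish carry a pair of runx2 genes, runx2a and runx2b, and 1 sp7 gene. All 3 are known to be expressed in the forming skeleton, which makes up a small part of a whole larva. In whole larvae, fewer osteoblasts and less RNA per osteoblast cannot be told apart.

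Each library of the DEX course held between 13685297 and 21812411 counts, and each of the crispant table between 30330699 and 38467088. No pair of libraries within a group agreed within sampling noise. The c libraries of the course stood apart, since leaving them out raised the number of genes called between D7 and D3 from 5493 to 11048. In the crispant table, the first principal component (38.2% of the variance) separated a first set of 3 WT and 3 crispant libraries from a second set of 2 and 2. The labels do not mention these sets. Levels are given in CPM, the counts of a gene per 1000000 counts of its library, after adjustment of library sizes by the TMM method. Log2 fold changes come from edgeR's quasi-likelihood test over all genes tested, with Benjamini-Hochberg adjusted p-values.

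Over the DEX course sp7 fell, runx2b did not pass the test in either direction, and runx2a was too sparsely counted to be followed. sp7 was 2.61-fold lower on D7 than on D3, in a comparison that called 13.5% of all genes lower. This call of sp7 was lost when the a or the b library of D7 was left out. In the crispants, neither sp7 nor runx2b passed the test against WT. Crispant levels of runx2b lay below WT in the first set of libraries and above it in the second, as for 5.15% of all genes.

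The sp7 level on D3 was 5.68, 6.92 and 6.28 CPM in the a, b and c libraries. On D4 it was 7.71, 7.79 and 5.28 CPM. These 6 libraries held the 6 highest levels of the course. Their lowest level, in the c library of D4, was nearly that of the a library of D5. The share of all genes with this order was not counted. On D5 the level was 5.26, 3.45 and 3.19 CPM, and on D6 it was 4.40, 2.63 and 1.84 CPM. On D7 it was 2.31, 1.62 and 3.31 CPM. Every D7 library lay below every D3 library, as for 21.9% of all genes. Every D7 library also lay below every D4 library, for which no share of all genes was counted, whereas D7 overlapped with D5 and D6. The counts behind these levels ran from 138 in the a library of D4 to 23 in the b library of D7.

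Day means of sp7 ordered as D4 (6.93 ± 1.43 CPM, SD, n = 3), D3 (6.29 ± 0.621), D5 (3.97 ± 1.12), D6 (2.96 ± 1.31) and D7 (2.41 ± 0.849). No neighbouring pair of days in the course differed past the threshold. The largest step was from D4 to D5, at a log2 fold change of -0.80 (SE 0.35), with an unadjusted edgeR p of 0.0365 and an adjusted p of 0.755. The step from D3 to D4 was 0.14 (SE 0.34) on the log2 scale, that from D5 to D6 was -0.43 (SE 0.35) and that from D6 to D7 was -0.29 (SE 0.36). These 4 comparisons called 0.189% of all genes between D4 and D3, 0.0092% between D5 and D4 and 0.0% for both later steps, where 1313 and 907 genes had an unadjusted p below 0.05. Their counts depended on the libraries and the test, at 4374, 761, 666 and 479 genes without all c libraries and 252, 101, 111 and 23 with DESeq2, against 41, 2, 0 and 0 here.

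Across the whole course the decline passed the test. Between D3 and D7, sp7 fell by 1.38 on the log2 scale (SE 0.36, edgeR adjusted p = 0.0125), in a comparison that called 25.3% of the 21750 genes tested, 13.5% as lower. Complete separation of the D7 libraries below the D3 libraries was found in 21.9% of all genes. A fit of the level on the day over all 15 libraries gave a fall of 0.41 per day on the log2 scale (SE 0.08, edgeR adjusted p = 0.000925), where 34.3% of genes were called and 18.1% as lower. Thus sp7 was 1 of many genes that declined. The call between D7 and D3 was lost without the a library of D7 (log2 fold change -1.32, edgeR adjusted p = 0.0544) and without the b library of D7 (-1.12, adjusted p = 0.0693), while the slope was called whichever library was left out, with edgeR adjusted p-values between 0.00113 and 0.00489.

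When each day was set against the other 4, as in the methods of the study, sp7 was called on 0 of 5 days by edgeR and by DESeq2. The log2 difference was 0.63 for D3, 0.82 for D4, -0.23 for D5, -0.73 for D6 and -1.06 for D7. D4 and D7 had an unadjusted edgeR p below 0.05, with adjusted p-values of 0.787 and 0.148. Such comparisons called 7.89% of all genes on D3, 0.0598% on D7 and 0.0% on each of the other days, where 1208, 215 and 1559 genes had an unadjusted p below 0.05.

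**Figure D1:**
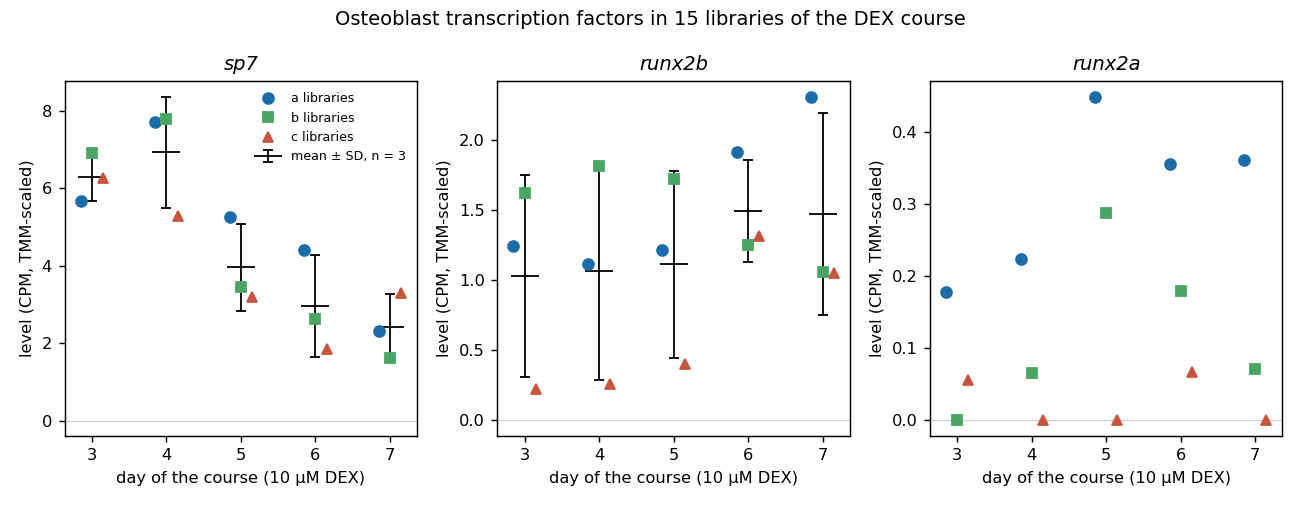
Level of sp7, runx2b and runx2a (vertical axes, CPM, TMM-scaled, each panel on its own scale) in the 15 libraries of the DEX course by day (horizontal axis), with points for the a, b and c libraries and black bars for the mean ± SD of 3 libraries, which are left out for runx2a because of its low counts. sp7 declined from 6.29 CPM on D3 to 2.41 CPM on D7, and the c libraries of runx2b lay at 0.220 to 0.399 CPM on D3 to D5.

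runx2b was the runx2 copy counted well enough for the tests. Its level was 1.24, 1.62 and 0.220 CPM in the a, b and c libraries of D3. On D4 it was 1.12, 1.82 and 0.259 CPM, and on D5 it was 1.22, 1.73 and 0.399 CPM. On each of these 3 days the c library was far below the other 2, with 4, 5 and 6 counts against 19 to 30. On D6 the level was 1.92, 1.25 and 1.32 CPM, and on D7 it was 2.31, 1.06 and 1.05 CPM. Here the c library lay near the b library, and the a library was highest. sp7 showed no such gap between the c library and the others on D3. Its c library was the lowest on D4, D5 and D6 and the highest on D7.

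Between D3 and D7, the log2 fold change of runx2b was 0.52 (SE 0.73, edgeR adjusted p = 0.650), with a 95% interval from -0.91 to 1.96. The interval includes a fall of up to 0.91 on the log2 scale, no change and a rise of more than 2-fold. It overlaps with that of sp7, which ran from -2.08 to -0.68. In the steps from day to day, the log2 fold change of runx2b lay between -0.02 and 0.41, and no step passed the test. The slope was 0.16 per day (SE 0.15, edgeR adjusted p = 0.440). The estimate rested on single libraries, at 0.04 without the c library of D3 and 1.01 without the b library of D3. Without all c libraries it was 0.28 (edgeR adjusted p = 0.621). Day means rose from 1.03 ± 0.725 CPM on D3 to 1.47 ± 0.725 CPM on D7 (SD, n = 3), and neighbours in this order did not differ beyond their spread.

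runx2a gave 36 counts in all over the 15 libraries of the course, between 0 and 7 in each. It was at 0 in 4 libraries, the b library of D3 and the c libraries of D4, D5 and D7, where a count of 0 allows up to 3 counts by counting error, or 0.155 to 0.226 CPM. The 3 libraries of a day summed to 4 counts for D3, 5 for D4, 12 for D5, 9 for D6 and 6 for D7. The exact Poisson 95% intervals of these sums, which cover counting error only, ran from 1.09 to 10.2 on D3 and from 2.20 to 13.1 on D7 and overlapped. runx2a did not pass the filter on low counts, so it was in none of the tests. Fitted without the filter, its log2 fold change between D7 and D3 was 0.80 (SE 1.40, edgeR adjusted p = 0.773). A change of runx2a was not detectable at this depth. In all, 2 of the 3 genes passed the filter.

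The ratio of sp7 to runx2b reads within a library does not depend on the scaling of library sizes. On D3, there were 4.57, 4.27 and 28.5 sp7 reads per runx2b read in the a, b and c libraries. On D7, there were 1.0, 1.53 and 3.14. Each D7 ratio lay below each D3 ratio, and the c library of D3 was high through its 4 runx2b counts. The ratio rests on the same counts as the levels above and is not a separate result. Levels of sp7 alone separated in this way, as for 21.9% of all genes, and the change of runx2b did not pass the test. The mean log2 ratio was 3.04 on D3 and 0.76 on D7, a difference of -2.28 (exact two-sided permutation p = 0.1, the smallest p that 3 against 3 libraries allow, so that no difference could pass a threshold of 0.05). Without the c library of D3, the mean log2 ratio of D3 was 2.14 and the difference -1.39. On the days between, the ratio ranged from 4.29 to 20.4 on D4, from 2.0 to 8.0 on D5 and from 1.40 to 2.30 on D6. Since gene lengths were not used, the ratio compares libraries and not the levels of the genes with each other.

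**Figure D2:**
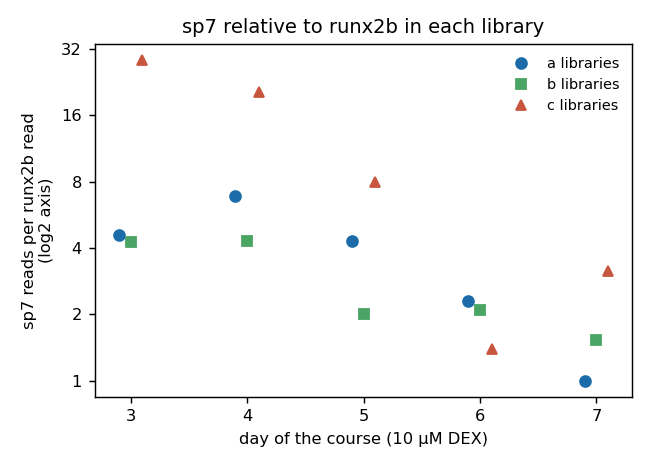
Number of sp7 reads per runx2b read (vertical axis, log2-spaced) in each library of the DEX course by day (horizontal axis), with points for the a, b and c libraries. The ratio was 4.27 to 28.5 on D3 and 1.0 to 3.14 on D7.

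The relatives and partners of these factors were read from a list of the Sp and Runx families with Cbfb. Of its 15 tested genes, 2 were lower on D7 than on D3 and none was higher, next to 13.5% lower and 11.8% higher among all genes. Both were sp7 itself and CBFB (ENSDARG00000040917), the shared partner of Runx proteins on DNA. CBFB fell from 34.6, 44.1 and 47.5 CPM on D3, in rising order, to 21.4, 23.3 and 36.7 CPM on D7. The D7 and D3 libraries of CBFB overlapped, and its log2 fold change was -0.63 (SE 0.21, edgeR adjusted p = 0.0426). RUNX1 and RUNX3, known for their part in blood and other lineages, had log2 fold changes of -0.11 (SE 0.37) and -0.14 (SE 0.27) and did not pass. The count of 2 became 0 without the a library of D7 and 0 without its b library, and 7 without all c libraries. Leaving out any of 10 other libraries, scaling by RLE or fitting only D3 and D7 brought it to 1, and leaving out the c library of D3 brought it to 4.

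A wider list of osteoblast transcription regulators, which also holds sp7, runx2b and CBFB, had 8 of 25 tested genes lower on D7 and none higher. Among all genes, 13.5% were lower and 11.8% higher. The median log2 fold change of the list was -0.63 against 0.06 over all genes. msx1a, a homeobox gene of skeletal and dental progenitors, was 3.03, 5.30 and 5.44 CPM on D3 and 1.28, 1.30 and 1.90 CPM on D7 in rising order, and fell by 1.61 on the log2 scale (SE 0.36, edgeR adjusted p = 0.00556). ALX4 (ENSDARG00000088332), a homeobox gene of the skull, fell by 1.40 (SE 0.27, adjusted p = 0.00236), while its copy ENSDARG00000074442 did not pass (-1.11, adjusted p = 0.122). LEF1, a transcription factor of the Wnt pathway, fell by 1.14 (SE 0.29, adjusted p = 0.0107). For these 3 genes, as for sp7, every D7 library lay below every D3 library, which held for 21.9% of all genes. The count of 8 was 2 without the a library of D7, 3 without its b library, 5 without the b library of D3 and 16 without all c libraries.

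Matrix and mineralization genes of bone, many of which are known to be expressed by the osteoblasts that Runx2 and Sp7 specify, formed a further list. Of 29 tested genes, 18 were lower on D7 than on D3 and 1 was higher, next to 13.5% and 11.8% among all genes. The median log2 fold change was -1.52, against 0.06 over all genes. col1a1a, which encodes the main collagen of bone, fell by 3.15 on the log2 scale (SE 0.72, edgeR adjusted p = 0.00602). COL10A1 (ENSDARG00000054753), a type X collagen that zebrafish osteoblasts express, was between 245 and 427 CPM on D3 and between 36.3 and 38.4 CPM on D7, and fell by 3.06 (SE 0.49, adjusted p = 0.000674), while its copy ENSDARG00000101535 did not pass (-1.19, adjusted p = 0.344). POSTN (ENSDARG00000104267), which encodes the matrix protein periostin, fell by 2.99 (SE 0.39, adjusted p = 0.000176), and col5a2b, a fibrillar collagen, fell by 3.15 (SE 0.69, adjusted p = 0.00481).

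The 1 gene of the list called higher was bglapl, a gene related to osteocalcin, which was 0.624, 1.24 and 1.87 CPM on D3 and 2.68, 3.08 and 3.10 CPM on D7 in rising order. It rose by 1.23 (SE 0.40, edgeR adjusted p = 0.0351), without overlap between the days, as 19.7% of all genes did. This call was lost without the filter on low counts, with only D3 and D7 fitted, and without the a or b library of D3 or any library of D7, where edgeR called 0 bone matrix genes higher. Without all c libraries 4 were called higher. spp1, which encodes the matrix protein osteopontin, had a log2 fold change of 0.11 (SE 0.62, adjusted p = 0.920); it lies outside the rule for naming genes and was picked after its value was seen. The count of 18 lower genes was 10 without the a library of D7 and 11 without its b library, and 19 of 29 without all c libraries.

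**Figure D3:**
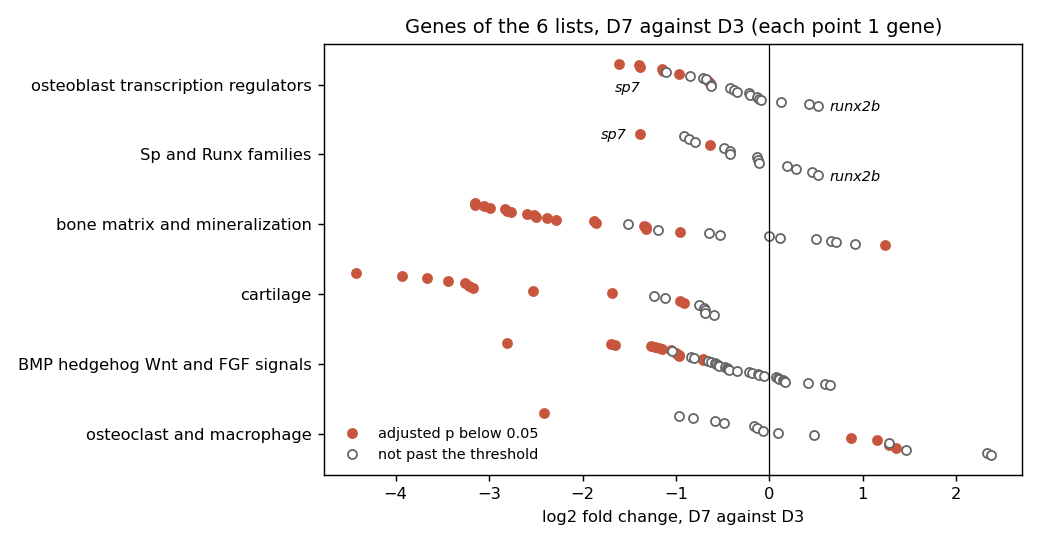
Log2 fold change between D7 and D3 (horizontal axis) of each tested gene of 6 lists (vertical axis, points spread by rank within a list), filled where the edgeR adjusted p was below 0.05. sp7 is labelled among the genes that fell (-1.38) and runx2b among those that did not pass (0.52).

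A list of BMP, hedgehog, Wnt and FGF signalling genes held ligands, receptors, antagonists and transcription factors. Of 42 tested genes, 14 were lower and none higher, next to 13.5% lower and 11.8% higher among all genes, with a median of -0.56. The lower genes included 1 copy of BMP2 (ENSDARG00000013409), a ligand that induces Runx2 and Sp7 in mammals, at -1.22 (SE 0.26, edgeR adjusted p = 0.00411). The other copy of BMP2 (ENSDARG00000041430) was at 0.11 (SE 0.26, adjusted p = 0.797). ihhb, a hedgehog ligand, was at -1.66 (SE 0.52, adjusted p = 0.0323), 1 copy of GLI2 (ENSDARG00000020884), a transcription factor of hedgehog signalling, at -1.27 (SE 0.35, adjusted p = 0.0169), and 1 copy of SFRP1 (ENSDARG00000035521), a secreted Wnt antagonist, at -1.70 (SE 0.31, adjusted p = 0.00162). The other copies did not pass, GLI2 (ENSDARG00000025641) at -0.62 (adjusted p = 0.106) and SFRP1 (ENSDARG00000057678) at 0.09 (SE 0.35, adjusted p = 0.879). Copies that did not pass were named after their values were seen, here and in the other lists. The count of 14 was between 7 and 9 when an a or b library of D3 or D7 was left out, and 26 without all c libraries.

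Cartilage genes fell in 11 of 18, next to 13.5% among all genes, with a median of -1.46. The largest declines were those of the cartilage collagens, col9a1b at -4.43 (SE 0.77, edgeR adjusted p = 0.00112), COL11A2 (ENSDARG00000012422) at -3.93 (SE 0.69, adjusted p = 0.00118), COL2A1 (ENSDARG00000069093) at -3.66 (SE 0.63, adjusted p = 0.00109) and COL11A1 (ENSDARG00000026165) at -3.44 (SE 0.63, adjusted p = 0.00163). On the osteoclast and macrophage list, 4 of 18 genes were higher and 1 was lower, next to 11.8% and 13.5% among all genes, with a median of 0.28. Without all c libraries, 5 of 17 were higher and 7 lower. acp5b, a tartrate-resistant acid phosphatase gene, was at 1.36 (SE 0.34, adjusted p = 0.0112), the macrophage receptor gene marco at 1.29 (SE 0.44, adjusted p = 0.0458), the proton pump gene TCIRG1 (ENSDARG00000016835; its copy ENSDARG00000105142 was at -0.58, adjusted p = 0.335) at 1.15 (SE 0.26, adjusted p = 0.00605) and tnfrsf11a, which encodes the RANKL receptor, at 0.87 (SE 0.23, adjusted p = 0.0132). ACP5 (ENSDARG00000019763), the copy listed as acp5a, went the other way from acp5b and was lower, at -2.41 (SE 0.72, adjusted p = 0.0258). The count of 4 was 1 without the D3 library a, 1 without the D3 library b and 7 without the c library of D6.

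Genes of other tissues were called over the same days, next to 13.5% lower and 11.8% higher among all genes. On marker lists, 5 of 6 erythrocyte, 4 of 7 notochord and 3 of 9 skeletal muscle genes were lower on D7 than on D3. Lower too were 2 of 6 for liver and 1 of 6 for epidermis. For teeth and scales it was 1 of 4, and for neurons and glia 1 of 7. Some of these genes are copies that were not chosen as markers but share the human symbol of one. The higher genes were 2 of 6 for exocrine pancreas and 1 each for erythrocytes, liver, neurons and glia, and photoreceptors. The summed level of the notochord markers was 477 to 687 CPM on D3 and 135 to 142 CPM on D7. That of teeth and scales was 58.6 to 78.9 and 25 to 30.5 CPM, and that of exocrine pancreas 128 to 3632 and 8503 to 9381 CPM. Single genes made up much of the first 2 sums on D3. COL9A1 (ENSDARG00000073699), which is also on the cartilage list, was 361 to 538 CPM on D3 and 40.6 to 49.4 CPM on D7. enam, of the teeth and scales, was 29.9 to 52.2 and 2.33 to 6.99 CPM. The notochord marker ntd5 went the other way, at 42.4 to 65.0 and 65.8 to 69.0 CPM. Among the erythrocyte genes, a copy of SLC4A1 (ENSDARG00000024560) rose, from 5.15 to 5.45 CPM on D3 to 8.73 to 9.93 CPM on D7. These genes lie outside the rule for naming genes and were picked after their values were seen. No marker was at 0 in all libraries. Their part in the decline of sp7 was not tested.

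Over the 15 libraries, the gene with the highest Pearson correlation of log2 CPM with sp7 among 17268 genes was PHOSPHO1, which encodes a phosphatase that starts mineralization of bone matrix (Pearson r = 0.965). By Spearman correlation it ranked 7 (0.957) behind cfap92 at rank 3 (0.961), and with the letter means removed it ranked 2 behind MCEE. It lay between 4.52 and 6.42 CPM on D3 and between 0.775 and 1.20 CPM on D7, and also fell among the bone matrix genes, by 2.38 on the log2 scale. The next were defbl1, a beta-defensin-like gene (r = 0.961), CRABP2 (ENSDARG00000073978), which encodes a retinoic acid binding protein (r = 0.961), cfap92 (r = 0.960) and MCEE, which encodes methylmalonyl-CoA epimerase (r = 0.959). These correlations describe libraries that share days, depth and letters, and the genes were picked for them.

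The genes most like runx2b were others, namely JPH1 (ENSDARG00000058603, r = 0.929, Spearman correlation 0.768), SRGAP1 (r = 0.923), GRIPAP1 (r = 0.913), ARHGEF25 (r = 0.907) and BTBD7 (r = 0.891). JPH1 encodes a junctional protein of muscle membranes. On D3 the lowest library of JPH1 was at 1.43 CPM beside 4.86 and 5.09 CPM, and that of SRGAP1 at 0.881 beside 4.18 and 5.21 CPM. The rank correlation was below the Pearson correlation for these 5 genes. With the letter means removed, they ranked 12, 19, 104, 135 and 348 among 17269 genes, with r between 0.742 and 0.868.

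**Figure D4:**
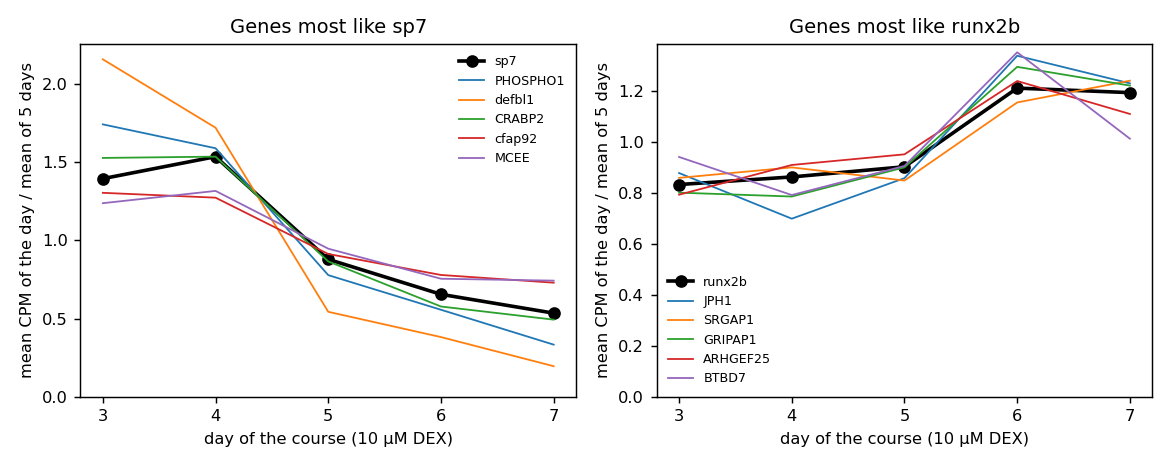
Mean CPM of each day divided by the mean over the 5 days (vertical axes, no unit) by day of the DEX course (horizontal axes) for sp7 and runx2b (black, thick) and the 5 genes most like each by Pearson correlation over 15 libraries. The genes most like sp7 declined with it after D4, and those most like runx2b were highest on D6 or D7.

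In the crispant table, the targeted gene was checked first. In the first set, cdkn1a was 17.9, 17.6 and 21.9 CPM in WT and 8.58, 10.1 and 8.34 CPM in crispants. In the second set it was 3.63 and 4.58 CPM in WT and 1.66 and 1.67 CPM in crispants. Crispants lay below WT in each set, and every library of the second set lay below every library of the first. Over all 10 libraries, fitted without a term for the set, the log2 fold change was -1.12 (SE 0.62, edgeR adjusted p = 0.529). With the set as a block it was -1.16 (SE 0.12, edgeR adjusted p = 0.000101). Within the sets it was -1.06 (adjusted p = 1.6e-06) and -1.29 (adjusted p = 0.0299). The count of a gene cut by Cas9 does not show how much intact transcript is left.

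sp7 did not differ detectably between crispants and WT. It was 3.8, 2.49 and 2.91 CPM in the WT libraries and 2.49, 3.55 and 3.93 CPM in the crispants of the first set. In the second set it was 2.04 and 2.25 CPM in WT and 1.88 and 2.42 CPM in crispants. The groups overlapped in both sets. Over all libraries, the means were 2.7 ± 0.693 CPM in WT and 2.86 ± 0.855 CPM in crispants (SD, n = 5). The log2 fold change was 0.08 (SE 0.25, edgeR adjusted p = 0.940) with a 95% interval from -0.40 to 0.57. This comparison had no term for the set and called 0.168% of 23222 genes. With the set as a block, which called 1204 genes, the log2 fold change was 0.07 (SE 0.19, edgeR adjusted p = 0.851). Within the sets it was 0.14 (SE 0.26, adjusted p = 0.729) and 0.01 (SE 0.32, adjusted p = 0.995), and the difference between the sets was -0.11 (SE 0.42, adjusted p = 0.896).

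runx2b lay on opposite sides of WT in the 2 sets of libraries, without passing the test in either set or for the difference between them. In the first set it was 2.55, 1.60 and 1.27 CPM in WT and 0.971, 1.12 and 1.18 CPM in crispants, so that every crispant lay below every WT library, as for 21.6% of all genes. In the second set it was 1.13 and 1.51 CPM in WT and 2.31 and 2.17 CPM in crispants, so that both crispants lay above both WT libraries, as for 22.3% of all genes. Both together, found in 5.15% of all genes, made a pattern that was lower without overlap in the first set and higher without overlap in the second. Over all libraries the log2 fold change was -0.05 (SE 0.32, edgeR adjusted p = 0.971) with a 95% interval from -0.68 to 0.58. With the set as a block it was -0.12 (SE 0.32, edgeR adjusted p = 0.854).

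Within the first set the log2 fold change of runx2b was -0.71 (SE 0.37, edgeR adjusted p = 0.174), where 22.1% of genes were called. Within the second set it was 0.77 (SE 0.35, adjusted p = 0.335), where 3.05% were called. The difference between the sets was 1.49 (SE 0.53, adjusted p = 0.0644) with a 95% interval from 0.45 to 2.54, and thus missed the threshold in a comparison that called 15% of genes. DESeq2 gave an adjusted p of 0.0403 for it. The highest WT library weighed on the value, since the difference was 1.16 without it, and the lowest WT library of the first set decided the call, since the difference was 1.69 (edgeR adjusted p = 0.0266) without it. The labels do not say how the sets differ.

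runx2a gave 35 counts over the 10 libraries, 20 in WT and 15 in crispants, between 0 and 9 in each. It was at 0 in 1 WT and 1 crispant library, where 3 counts correspond to 0.0889 and 0.101 CPM. Without the filter on low counts, its log2 fold change in crispants was -0.32 (SE 0.98, edgeR adjusted p = 0.938). The ratio of sp7 to runx2b reads was 1.49 to 2.28 in WT. It was 2.57, 3.18 and 3.34 in the crispants of the first set, above every WT library. In those of the second set it was 0.814 and 1.12, below every WT library. The ratio rests on the same runx2b counts, whose split between the sets was found in 5.15% of all genes. Levels of sp7 overlapped with WT in both sets, and the ratio was not tested.

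**Figure D5:**
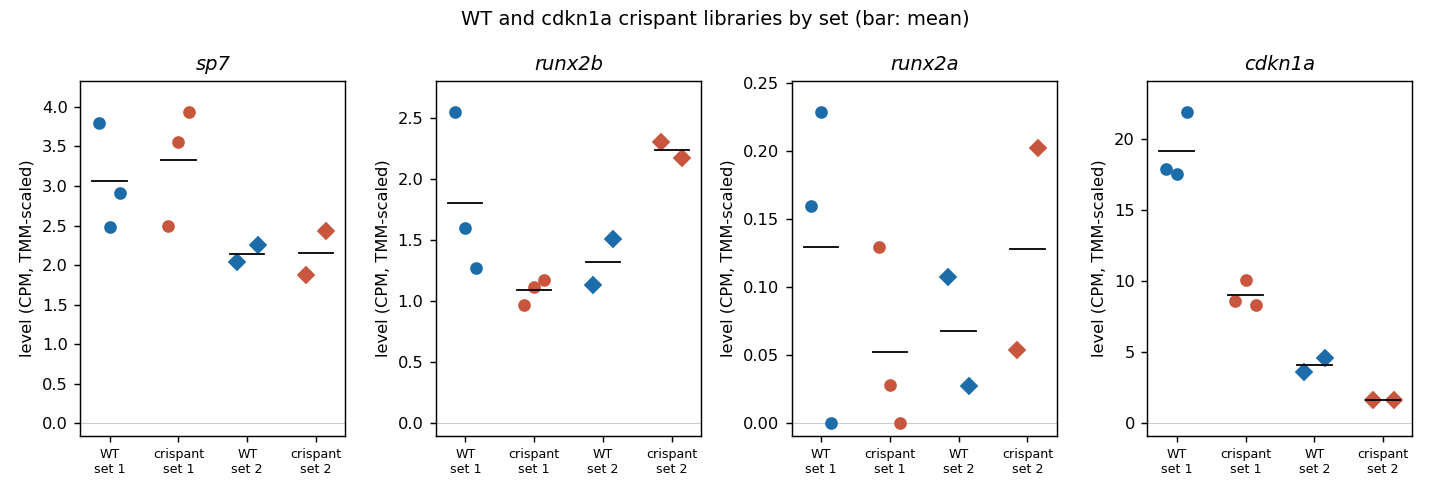
Level of sp7, runx2b, runx2a and cdkn1a (vertical axes, CPM, TMM-scaled, each panel on its own scale) in the WT (blue) and crispant (red) libraries of the first set (circles, n = 3) and the second set (diamonds, n = 2), with bars at the means. The crispants of runx2b lay below WT in the first set and above it in the second, as for 5.15% of all genes. Those of sp7 overlapped with WT in both.

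Of the 25 tested osteoblast regulators, 1 was higher and 1 lower in crispants of the first set, next to 9.56% higher and 12.5% lower among all genes. Of 30 bone matrix genes, 2 were higher and 3 lower in the first set, and 6 were higher in the second, where 1.13% of all genes were. Of 18 cartilage genes, 5 were lower in the first set and 11 higher in the second. The difference between the sets was itself called, as higher in the second, for 12 of the 30 bone matrix genes and 12 of the 18 cartilage genes, where 8.5% of all genes were called in that direction. It was called as lower for 2 bone matrix genes, next to 6.49% of all genes. Lists of other tissues were split as well. Called higher in the second set were 5 of 7 notochord, 3 of 6 erythrocyte and 3 of 9 skeletal muscle genes, with none lower. Called lower were 4 of 6 exocrine pancreas and 5 of 18 osteoclast and macrophage genes, with none higher. Among the 25 osteoblast regulators, 2 were higher and 2 lower.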

How the data were processed

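Whole-larva RNA was sequenced as paired-end reads. After adapter removal with Trim Galore and alignment to the GRCz11 assembly with STAR (2.7.8), the authors obtained counts per Ensembl gene with HTSeq (0.13.5) and deposited them unnormalized in 2 tables. The annotation release and the strand setting are not given in the sources used here, so reads of overlapping genes, and reads shared by runx2a and runx2b or by other gene copies, are uncertain.

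Symbols were paired with 29201 of the 32520 identifiers by a name table, in which several zebrafish genes carry a human symbol. A pair of copies with the same symbol is told apart by its identifier. Where a gene of a list was found only under such a symbol, both copies were counted, whether or not the list named them. Columns were grouped by day or genotype, with the letters a, b and c read as replicates 1, 2 and 3. The sets of the crispant table were defined from the data.

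Tests used R (4.3.3) and edgeR (4.0.16), with TMM scaling, filterByExpr, quasi-likelihood fits and Benjamini-Hochberg adjustment at 0.05 over all genes tested, 21750 in the course and 23222 in the crispant table, and crispant calls also needed an absolute log2 fold change over 0.3. A standard error is the log2 fold change divided by the square root of F, and 95% intervals are normal. Log2 CPM used a prior count of 2. The tables were tested separately. DESeq2 (1.42.0), RLE scaling, other filters, other models and leaving out libraries were alternatives. The tests were checked on simulated counts of independent libraries with the same spread for every gene. That check does not cover the deviation of the c libraries, the sets of the crispant table or changes of genes with few counts.

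The genes and lists were chosen with earlier results of these data known. Named genes of a list are those past the threshold between D7 and D3, up to 4 in each direction by absolute log2 fold change with a mean log2 CPM not below 0. For likeness they are the 5 genes that have a symbol, a mean log2 CPM not below 1 and the highest Pearson correlation. Intervals and limits of counts cover counting error only.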

Additional observations from a re-analysis of the deposited data

Results flagged for a closer look

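For runx2b, the log2 fold change of crispants against WT in the second set of libraries minus that in the first set was 1.49 (SE 0.53). Every crispant library lay below every WT library in the first set (n = 3 and 3), as for 21.6% of all genes. In the second set, both crispants lay above both WT libraries (n = 2 and 2), as for 22.3% of all genes. runx2b was flagged by the 2 patterns together and not by a test, and 5.15% of all genes showed both. The interaction term of edgeR's quasi-likelihood test gave an adjusted p of 0.0644, and over the fits that left out 1 library it ranged from 0.0266 to 0.194. The cause was not tested.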

How the results depend on the processing

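The fall of sp7 between D3 and D7 kept its direction under all alternatives and its call under all that kept the a and b libraries of D7. Without 1 library it ranged from -1.62 to -1.12 on the log2 scale, and the slope from -0.44 to -0.36. runx2b between D3 and D7 ranged from 0.04 to 1.01 without passing. Without 1 library, the mean log2 ratio of sp7 to runx2b reads on D7 minus that on D3 ranged from -2.76 to -1.39. runx2b has no value under a minimum of 10 counts in every library of the course, which removed it, and runx2a has none beyond the fit without a filter. In the other comparisons of runx2b, leaving out 1 library turned the sign of values that passed no test, with ranges of -0.55 to 0.55 for D4 against D3, -0.39 to 0.72 for D5 against D4, -0.50 to 0.21 for D7 against D6, -0.81 to 0.16 for D3 against the other days, -0.90 to 0.21 for D4, -0.63 to 0.24 for D5 and -0.14 to 0.54 for D7. Without all c libraries, runx2b was 0.10 for D7 against D6. For sp7, D7 against D6 ranged from -0.58 to 0.12. In crispants, the ranges were -0.059 to 0.24 for sp7, -0.22 to 0.17 for runx2b, and -0.31 to 0.032 (sp7) and 1.16 to 1.72 (runx2b) for the difference between the sets. runx2b was 0.77 in the second set alone, and its difference between the sets, 1.49 with DESeq2 and 1.49 with at least 10 counts in every library, passed the threshold in both. The causes were not tested.

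Counts of genes called moved more than the values of the members. DESeq2 called 252 genes for D4 against D3, 101 for D5 against D4, 111 for D6 against D5, 23 for D7 against D6, 3436 for D3, 19 for D4 and 2028 for D7 against the other days, and 517 in crispants, where edgeR called 41, 2, 0, 0, 1716, 0, 13 and 39. Leaving out all c libraries gave 4374, 761, 666 and 479 genes for the successive steps, 5840 for D3 and 33 for D7 against the others, and 11048 for D7 against D3. Fits of only the days compared called 10 genes for D4 against D3 and 0 for D5 against D4, and at least 10 counts in every library gave 1 for D6 against D5 and 252 for D7 against the others. In crispants, the set as a block gave 1204, the first set alone 5146 and the second alone 714. Without 1 library, the counts ranged from 3283 to 6469 for D7 against D3, 1 to 697 for D4 against D3, 0 to 12 for D5 against D4, 0 to 3 for D6 against D5, 0 to 12 for D7 against D6, 24 to 2835 for D3 and 0 to 2214 for D7 against the others, 9 to 157 in crispants and 2000 to 4579 for the difference between the sets. Without all c libraries, genes lower on D7 numbered 26 for the signalling list, 16 for osteoblast regulators and 7 for Sp and Runx. In the same order, these counts ranged from 7 to 17, 2 to 11 and 0 to 4 without 1 library. The lower genes of bone matrix then ranged from 10 to 19, and the higher genes of the osteoclast list from 1 to 7. The Sp and Runx families had 1 with RLE scaling and 1 with only D3 and D7 fitted.

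With the replicate letter as a block, sp7 between D3 and D7 was -1.39 (edgeR adjusted p = 0.00575) and its slope -0.41. For runx2b these values were 0.69 (SE 0.53, edgeR adjusted p = 0.327) and 0.21 (SE 0.11, adjusted p = 0.129). Without the block, the SE of runx2b was 0.73 for D7 against D3 and 0.15 for the slope. No call of these genes changed. The block gave 133, 61, 42 and 2 genes for the successive steps, 3057 for D3 against the other days and 22 lower signalling genes. Same-letter libraries correlated between 0.07 and 0.75 in their deviations from the day means, over 0.1 in 29 of 30 pairs. The c libraries correlated with each other at 0.24 to 0.75, and negatively with all a and b libraries of other days. Since 6 of 15 libraries were closest to their own letter, the letters were not taken as pairs. The main fits hold no term for the letter, and the main crispant fit holds none for the set. No paired analysis was possible because the crispant columns carry names that occur for 2 columns. With 4 to 32 counts of runx2b per library of the course, counting error and the spread between letters limit what can be seen of it.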
